A study of Mus musculus with 9 samples.

Results

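Cytosolic ribosomal proteins are the protein subunits of the ribosomes that translate nuclear mRNA. They were taken here as every probe set with a single platform symbol that begins with Rpl, Rps or Rplp followed by a number, leaving out S6 kinases and pseudogenes. The rule found 103 probe sets for 48 genes, 26 of the large subunit and 22 of the small subunit, out of 45037 probe sets and 18193 named genes on the array. A filter on signal, which kept probe sets at or above the 40th percentile of mean signal, left 90 of these probe sets and 44 of the genes among the 27022 probe sets tested. Rpl14, Rpl3l, Rps16 and Rps6 had no probe set above it. A reference gene table lists 84 protein-coding mouse symbols of this form, and 47 of them were members. Another 110 probe sets, which the platform assigns to several genes including such a symbol, lay outside the rule, so Rpl3, Rpl10 and Rplp1 were not analysed here.

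The samples were spermatogonia, the mitotic germ cells of the testis, from adult Balb/C mice. One group ate a normal diet (control), and the other groups ate a vitamin A-deficient diet (VAD) for 18 weeks or for 25 weeks, with 3 arrays per group. Per the labels, testes of 2 mice were pooled for a preparation, cells were held overnight in culture and separated by sedimentation, purity was estimated at above 90%, and 100 ng of total RNA was amplified before hybridisation. The labels say no more of age than "adult", and do not give the time of the controls on their diet or whether the arrays came from separate preparations. Therefore p-values measure only the spread between these arrays, and this spread may be technical. In pooled RNA of this kind, fewer cells of a type and less RNA per cell cannot be told apart.

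A ribosome joins a small subunit, which reads the mRNA, to a large subunit, which forms the peptide bond, and most of its proteins are present in a single copy. Mammalian ribosomal protein mRNAs usually begin with a run of pyrimidines, the 5′ terminal oligopyrimidine tract, through which mTOR signalling and the binding protein Larp1 set their translation together. A few genes have paralogues with restricted expression. Rpl39l, for example, is an autosomal copy of the X-linked gene Rpl39 that is known for its expression in male germ cells, whose X chromosome is silenced during meiosis.

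The sequence around the annotated start of 6 genes described below is shown, with nearby runs of pyrimidines marked. Each window holds 20 bases on either side of the RefSeq start on the gene's strand (build GRCm38.p6, 5′ to 3′), and capitals mark the longest uninterrupted run of C and T of at least 7 bases that reaches within 10 bases of the start.
Rpl27a, chr7:109519175-109519214, + strand: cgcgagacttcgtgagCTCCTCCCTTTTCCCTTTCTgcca
Rpl13a, chr7:45128726-45128765, - strand: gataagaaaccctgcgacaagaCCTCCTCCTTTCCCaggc
Rpl39, chrX:37085203-37085242, - strand: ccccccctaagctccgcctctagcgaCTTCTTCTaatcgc
Rpl39l, chr16:10170208-10170247, + strand: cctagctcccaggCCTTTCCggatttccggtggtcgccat
Rpl22l1, chr3:28805488-28805527, + strand: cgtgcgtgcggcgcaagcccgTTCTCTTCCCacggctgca
Rps3, chr7:99483690-99483729, - strand: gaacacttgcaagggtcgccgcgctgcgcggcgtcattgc
Rpl27a has a run of 20 bases and Rpl13a of 14, whereas no such run was found in the Rps3 window. The genes shown are examples, and they include Rpl39l and Rpl22l1, which did not pass the test against control described below. Among genes not shown that had a probe set past that test, no run was found in either window of Rpl22 or in that of Rpl7l1. Rpl10a and Rps24 each have a window with a run and another without. Windows were found for 42 of the 48 genes, 50 windows in all, and 24 of them (48%) held such a run on the gene's strand, against 19.7% of all 32851 windows in the table. A marked run need not begin at the annotated start, as a terminal tract would. The Rpl39l run ends just before the start, and those of Rpl39, Rpl13a and Rpl22l1 begin after it. The match describes the letters near the annotated start, and the start used in these cells was not measured here.

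Array brightness was uneven, and this touched the ribosomal proteins directly. Trimmed mean signals were 23.0 in control replicate 3 and 23.3 in VAD 25-week replicate 3, the dim arrays hereafter, against 55.6 to 186 on the other 7. VAD 25-week replicates 1 and 2 stood apart in another way, with poly-A control signals of 270 and 338 against 4.97 to 10.6 elsewhere and actin 3′/5′ signal ratios of 7.82 and 7.92 against 3.32 to 5.74. Their Gapdh 3′/5′ ratios, 3.77 and 4.05, lay within the 3.08 to 5.61 of the others. How these arrays were handled and the longer deficiency cannot be told apart. Signals were therefore compared after quantile normalization, which gives all arrays 1 distribution, as log2(signal + 3.26), and the model had a term for group and a block for the dim arrays. All values below are on this log2 scale unless stated otherwise, and a probe set passed at a Benjamini-Hochberg adjusted p under 0.05 in limma over all 27022 probe sets.

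Sertoli cells nurse the germ cells inside the tubule, and their markers moved with the diet. The mean of their 18 measured markers was 3.86 to 4.48 on the control arrays, 5.36 to 6.47 at 18 weeks and 5.48 to 6.25 at 25 weeks, with 7 of 18 higher at 18 weeks and 12 of 18 at 25 weeks. Sox9, Amh, Sox8 and Gdnf were below the filter in these preparations. Leydig cell markers were higher for 0 of 6 at 18 weeks and 2 of 6 at 25 weeks, leukocyte markers for 0 and 5 of 11, and those of peritubular myoid cells and endothelial cells for 0 of 6 each at both times. These counts do not show the size of the differences. At 18 and 25 weeks the median difference was 0.98 and 1.29 for Leydig cells and 0.12 and 0.37 for leukocytes. It was -0.19 and 0.74 for peritubular myoid cells and 0.06 and -0.40 for endothelial cells. Of the germ cell markers on the array, 8 of 16 for undifferentiated spermatogonia passed the filter (Ret, Pou5f1, Sall4 and Lin28a did not). All markers of later germ cells passed it, 12 for differentiating spermatogonia, 13 for pachytene spermatocytes and 16 for spermatids. On the control arrays the mean of the measured markers was 4.90 to 4.99 for undifferentiated spermatogonia and 5.25 to 5.45 for differentiating ones. It was 9.74 to 10.3 for pachytene spermatocytes and 9.02 to 10.1 for spermatids. Signal also depends on the probes, so these levels do not count cells. Germ cell markers also moved at 25 weeks, where 0 spermatid markers were higher and 5 lower of 16 (median -0.37), 3 pachytene markers higher and 5 lower of 13 (median -0.29), 3 markers of differentiating spermatogonia higher and 1 lower of 12 (median 0.25), and 1 of 8 of undifferentiated spermatogonia higher. At 18 weeks 2 pachytene markers were higher and 1 lower, 1 marker each of differentiating and undifferentiated spermatogonia was higher, and 0 spermatid markers passed. The 18-week medians were -0.40 for spermatids (-0.07 without the block for the dim arrays) and 0.03 for pachytene spermatocytes. They were 0.24 for differentiating and -0.04 for undifferentiated spermatogonia. The shares of all tested probe sets that passed were 1.47% at 18 weeks and 14.9% at 25 weeks. The part of these other cells in the values below was not tested.

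Ribosomal protein probe sets were bright. Of the 90 kept, 59 lay above the 90th percentile of all probe sets, among them those of Rps7, Rps29, Rps20, Rps28 and Rpl39l. A probe set's brightness also depends on its probes, so these positions do not rank the transcripts. The 103 probe sets, 0.229% of all those on the array, carried 1.55% to 1.85% of the deposited signal on the 7 brighter arrays, with a mean of 1.72% ± 0.0944 (SD, n = 7). On the dim arrays they carried 1.08% in control replicate 3 and 1.11% in VAD 25-week replicate 3. By group the share was 1.53% ± 0.399 in controls, 1.75% ± 0.0407 at 18 weeks and 1.47% ± 0.321 at 25 weeks (SD, n = 3), so the difference between groups was smaller than that between dim and other arrays.

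The same arrays set apart the single genes. After normalization each dim array was compared with the other arrays of its own group, and the differences were averaged. By this measure 72 of the 90 probe sets were lower on the dim arrays and 18 were higher. Of all 27022 tested probe sets, 15259 were lower and 11763 higher. The median difference was -0.61, against -0.18 over all tested probe sets. The lowest was Rps10 1438723_a_at at -4.07, with Rps14 1437706_x_at (-2.66), Rps15 1416089_at (-2.49) and Rplp0 (-2.33), the core of the ribosomal stalk, also far down. Others went the opposite way, with Rpl41 1454639_x_at at 2.48, Rpl37 at 1.85, Rps25 at 1.75 and Rpl27a 1437729_at at 1.69. Probe sets of the same gene parted here, since Rpl41 1455578_x_at was at -1.49 and Rps10 1439374_x_at at -0.43. Because 1 control and 1 VAD 25-week array make up the dim arrays, these offsets enter the 25-week comparison on both sides, and in the 18-week comparison they are taken out by the block.

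**Figure D1:**
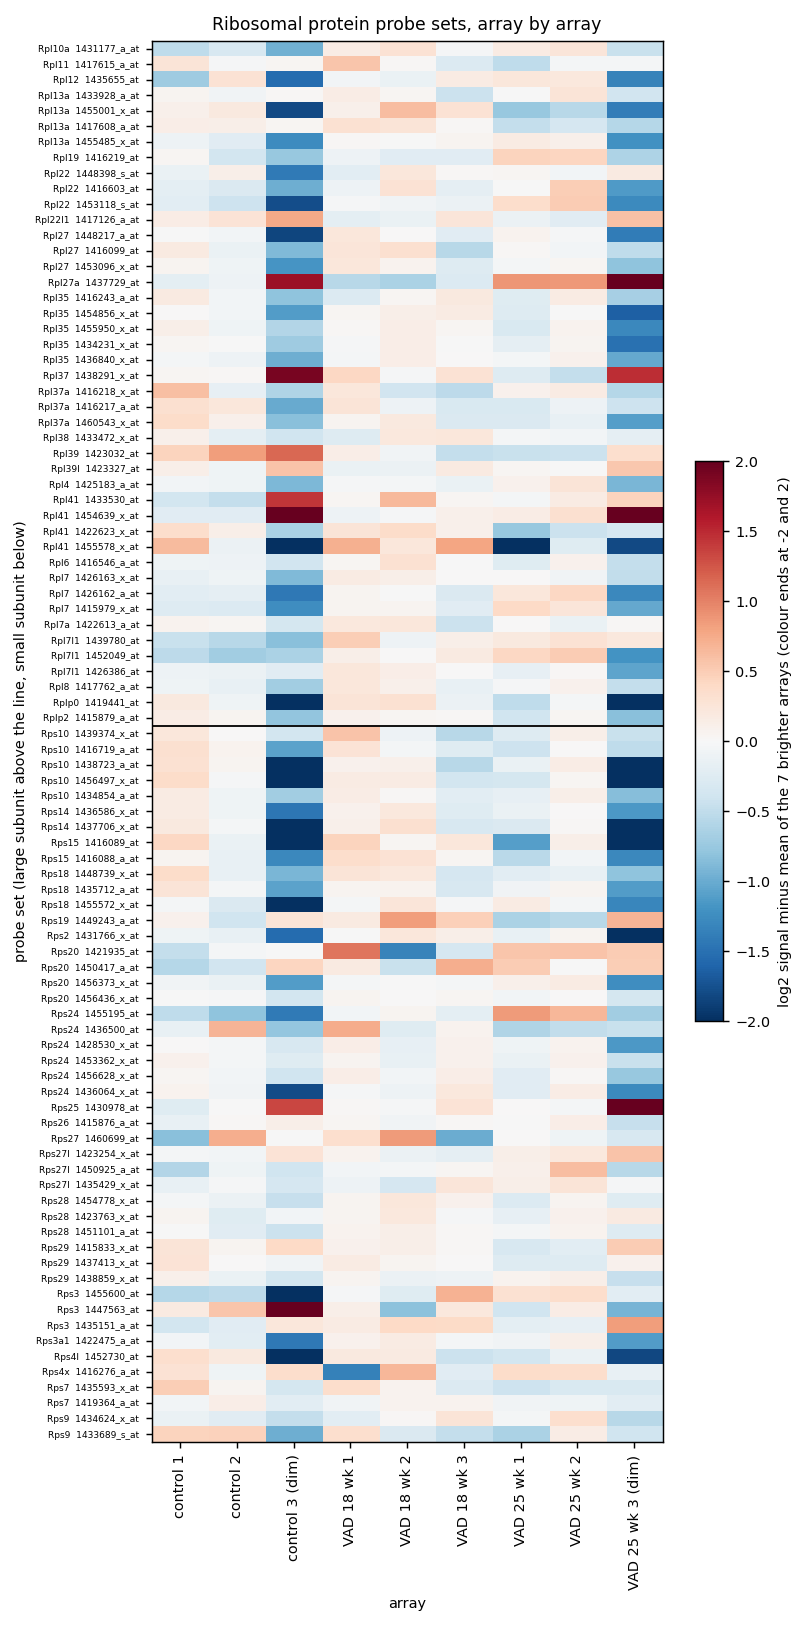
Log2 signal of each of the 90 kept ribosomal protein probe sets (rows, large subunit above the line) on each of the 9 arrays (columns), shown as the difference from the mean of the 7 brighter arrays, with colours ending at -2 and 2. The columns of control replicate 3 and VAD 25-week replicate 3, the dim arrays, stand out. Against the other arrays of their own groups, 72 probe sets were lower on them and 18 higher, beside 15259 lower and 11763 higher of all 27022 tested.

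The comparison of 25 weeks of deficiency with control asks which transcripts differed after the longer time on the diet. Among ribosomal proteins, 7 probe sets were higher and 2 were lower, and the rest did not pass. The higher ones belonged to the large subunit genes Rpl27a, Rpl22, Rpl10a, Rpl7 and Rpl7l1 and the small subunit genes Rps24 and Rps3, and the lower ones to Rpl13a and Rpl39. These 9 of 90 (10%) are read against 14.9% of all tested probe sets called in this comparison, 8.54% higher and 6.32% lower, so the share among ribosomal proteins was not above the background. Large subunit probe sets gave 5 higher and 2 lower of 44, and small subunit probe sets 2 higher and 0 lower of 46. The median difference was -0.01, the same as over all tested probe sets, and 75 of 90 lay within 0.5 of 0, against 61.6% of all. Their errors were smaller too, with a median SE of 0.154 against 0.287.

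These counts depended on the scaling and on the block. On the deposited scale, where the median of all tested probe sets was 0.93 above control, 41 ribosomal protein probe sets were higher and 0 lower, with a median of 0.89, and 39.1% of all tested probe sets were called. Median centring gave 6 higher and 0 lower, centring at the brightest 5% gave 9 and 0, and scaling to a common trimmed mean gave 6 and 4, beside 13.4%, 15.3% and 15.8% of all probe sets called. The model with group alone called 0 ribosomal protein probe sets and 0 of all probe sets, of which 3209 had an unadjusted p under 0.05. Without the dim arrays 14 were called, 9 higher and 5 lower, 6 of them among the 9 named above, and the background was then 15.7%. Leaving out control replicate 1 or 2 gave 3 and 4 calls, VAD 25-week replicate 1 or 2 gave 3 each, and the background fell as well, to 7.75%, 9.76%, 7.36% and 6.61%. Leaving out the dim control array alone gave 14 and the dim 25-week array alone 15, beside 15.5% and 15.3%. In another fit the arrays with high poly-A signal, both at 25 weeks, formed a further block. The 25-week difference was then that between VAD 25-week replicate 3 and control replicate 3, 1 array each, so its calls are not given.

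Rpl27a, a large subunit protein, read 6.07, 6.16 and 7.98 on the control arrays, 5.72, 5.64 and 6.0 at 18 weeks, and 7.14, 7.14 and 8.64 at 25 weeks for 1437729_at. The 25-week arrays were above the control arrays of like brightness, and the ranges overlapped through the dim control array alone. The difference at 25 weeks was 0.90 ± 0.17 (SE, n = 3 per group; limma adjusted p = 0.00708), or 1.10 without the dim arrays and 0.66 within them. Its values stayed past the threshold when each array in turn was left out (adjusted p from 0.00566 to 0.0396). The gene's other probe set, 1419799_at, was below the filter.

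Rpl22, which binds RNA and is dispensable for the ribosome itself, read 9.25, 9.05 and 7.70 in controls, 9.45, 9.41 and 9.35 at 18 weeks, and 9.82, 9.97 and 8.20 at 25 weeks for 1453118_s_at. The dim array was the lowest of its group in both cases, and outside the dim arrays the 25-week values were above all others. The difference was 0.66 ± 0.12 (SE, n = 3 per group; limma adjusted p = 0.00562), or 0.73 without the dim arrays and 0.50 within them, and it passed with each array left out in turn (adjusted p from 0.00529 to 0.0392). The gene's other kept probe sets did not pass, with 0.27 for 1416603_at and 0.54 for the faint 1448398_s_at.

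Rpl10a, a protein of the mobile L1 stalk, read 9.10, 9.28 and 8.64 in controls, 9.75, 9.89 and 9.57 at 18 weeks, and 9.77, 9.83 and 9.16 at 25 weeks. All 3 arrays at 18 weeks were above all 3 controls, while at 25 weeks the dim array fell within the control range. Its 25-week difference was 0.58 ± 0.12 (SE, n = 3 per group; limma adjusted p = 0.0101), and at 18 weeks it was 0.53 ± 0.13 (limma adjusted p = 0.0666), which did not pass. Without the dim arrays both passed, with 0.54 at 18 weeks (limma adjusted p = 0.0406) and 0.60 at 25 weeks (limma adjusted p = 0.015). The 25-week call was lost without control replicate 1 (limma adjusted p = 0.0504) or without VAD 25-week replicate 2 (limma adjusted p = 0.0532).

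Rpl7, a large subunit protein, had 3 kept probe sets that leaned the same way. The called one, 1415979_x_at, read 10.25, 10.23 and 9.26 in controls, 10.56, 10.56 and 10.29 at 18 weeks, and 10.91, 10.75 and 9.48 at 25 weeks. The brighter 25-week arrays were the highest of the 9, and the dim arrays were the lowest. The difference was 0.46 ± 0.12 (SE, n = 3 per group; limma adjusted p = 0.0276), with 0.56 without the dim arrays and 0.22 within them. Leaving out control replicate 1 or 2 or VAD 25-week replicate 1 or 2 ended the call (limma adjusted p = 0.0961, 0.0968, 0.125 and 0.0834). Values for 1426162_a_at and 1426163_x_at were 0.39 and 0.18 and did not pass.

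Rpl7l1, a paralogue of Rpl7 found in assembling large subunits, read 4.95, 4.84 and 4.56 in controls, 5.88, 5.28 and 5.50 at 18 weeks, and 5.59, 5.67 and 5.60 at 25 weeks for 1439780_at. All 6 VAD arrays were above all 3 controls. The 25-week difference was 0.84 ± 0.23 (SE, n = 3 per group; limma adjusted p = 0.032) and the 18-week difference 0.71 ± 0.24 (limma adjusted p = 0.176). It did not pass without the dim arrays (limma adjusted p = 0.0616), nor without any single control or 25-week array (adjusted p from 0.0617 to 0.104). The gene's brightest probe set, 1426386_at, was at -0.25 and the other, 1452049_at, at 0.52, and neither passed, although the latter did without the dim arrays (1.16, limma adjusted p = 0.0055).

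A pair of small subunit calls, chosen for description after their values were seen, came from faint probe sets of genes whose bright probe sets did not pass. For Rps24, a protein of the small subunit body, 1455195_at read 4.10, 3.80 and 3.19 in controls, 4.55, 4.66 and 4.42 at 18 weeks, and 5.46, 5.27 and 3.92 at 25 weeks. The difference at 25 weeks was 1.19 ± 0.28 (SE, n = 3 per group; limma adjusted p = 0.0162), and the call was lost without control replicate 2 (limma adjusted p = 0.0565), VAD 25-week replicate 1 (0.0876) or VAD 25-week replicate 2 (0.0712). The other 5 kept Rps24 probe sets lay between -0.44 and 0.15.

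For Rps3, which lines the mRNA entry channel, 1455600_at read 4.34, 4.39 and 2.41 in controls, 4.89, 4.66 and 5.59 at 18 weeks, and 5.21, 5.26 and 4.69 at 25 weeks. All VAD arrays were above all controls, and the dim control array was far below the rest. The 25-week difference of 1.34 ± 0.35 (SE, n = 3 per group; limma adjusted p = 0.0253) was 0.95 without the dim arrays (limma adjusted p = 0.0805) and 2.28 within them. The call was lost without control replicate 1 or 3, or without any single 25-week array (adjusted p from 0.0531 to 0.095). A further faint probe set, 1447563_at, lay the opposite way at -1.40 ± 0.49 (limma adjusted p = 0.077), and the bright 1435151_a_at was at 0.28 ± 0.13 (limma adjusted p = 0.168).

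Of the lower pair, Rpl13a is a large subunit protein that also acts outside the ribosome in translational silencing. Its representative probe set, 1417608_a_at, read 8.77, 8.75 and 8.68 in controls, 8.95, 8.89 and 8.65 at 18 weeks, and 8.16, 8.30 and 8.07 at 25 weeks. All 3 arrays at 25 weeks were below the other 6, the dim array included. The difference was -0.56 ± 0.13 (SE, n = 3 per group; limma adjusted p = 0.0156), with -0.54 without the dim arrays and -0.61 within them, and on the deposited scale it was 0.41. It did not pass with median centring (limma adjusted p = 0.11) or when centred at the brightest 5% (0.0623). The call was lost without control replicate 1 (limma adjusted p = 0.0549), control replicate 2 (0.0503) or VAD 25-week replicate 1 (0.0697). The gene's other 3 probe sets were at -0.39, -0.05 and 0.21 and did not pass.

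Rpl39, a small protein of the peptide exit tunnel encoded on the X chromosome, read 4.55, 4.93 and 5.25 in controls, 4.24, 4.03 and 3.63 at 18 weeks, and 3.65, 3.68 and 4.43 at 25 weeks. All 6 VAD arrays were below all 3 controls, at the faint end of the ribosomal proteins. The 25-week difference was -0.99 ± 0.29 (SE, n = 3 per group; limma adjusted p = 0.04) and the 18-week difference -0.73 ± 0.31 (limma adjusted p = 0.261). On the deposited scale the 25-week value was -0.05, and without the dim arrays it was -1.15 (limma adjusted p = 0.0535). Leaving out any single control array, VAD 18-week replicate 2 or VAD 25-week replicate 1 or 2 also ended the call (adjusted p from 0.0518 to 0.125).

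**Figure D2:**
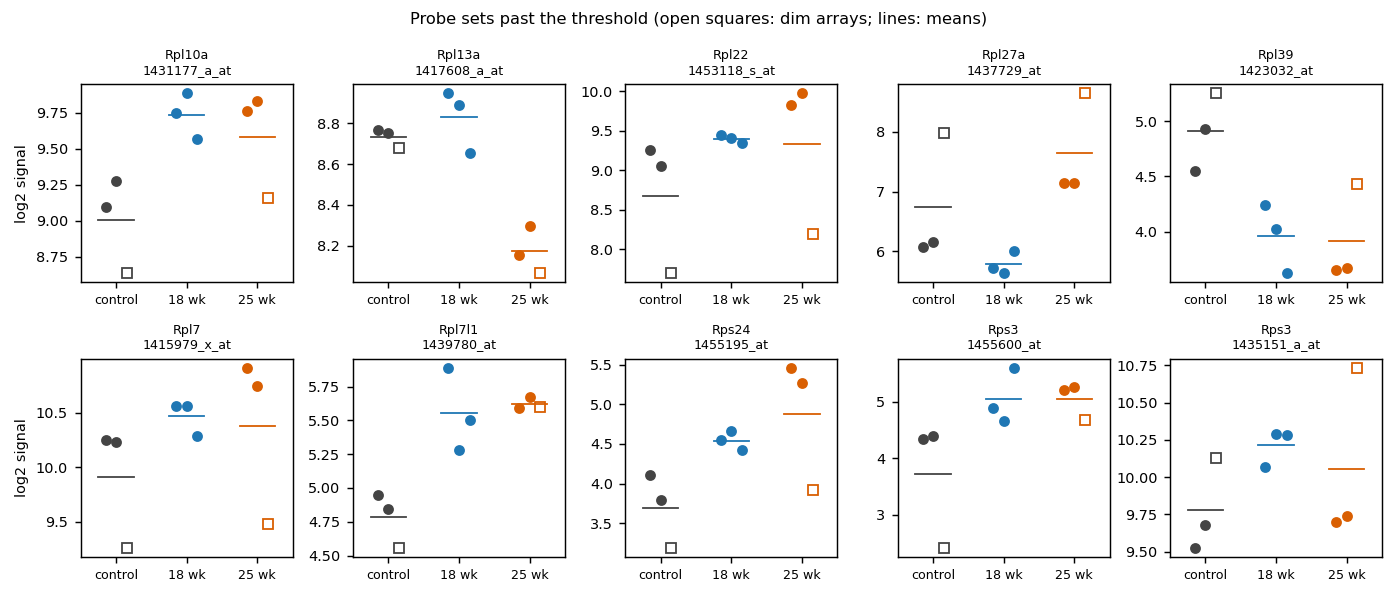
Log2 signal (vertical axes, each with its own range) of the 10 ribosomal protein probe sets called in either VAD group against control, by array and group, with lines at group means and open squares for the dim arrays. Rpl13a at 25 weeks (8.07 to 8.30) lay below every other array, whereas for Rpl27a, Rpl22, Rpl10a, Rpl7 and Rps24 the groups overlapped through a dim array.

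The 25-week differences of all members are given by brightness. Of the 56 probe sets with a mean log2 signal of 8 or more, 52 lay within 0.5 of control and 4 (7.14%) were called. Of the 34 fainter ones, 23 lay within 0.5 and 5 (14.7%) were called, with larger errors (median SE 0.271 against 0.139). The share of all tested probe sets called was 14.9%. Among the brightest, Rps29 1438859_x_at was at 0.04 ± 0.10, Rps7 1419364_a_at at -0.08 ± 0.09 and Rps20 1456436_x_at at 0.00 ± 0.08, and none passed. Large values that did not pass, over all 90, included those of Rps3 1447563_at (-1.40 ± 0.49) and Rpl41 1455578_x_at (-0.85 ± 0.42). Others were those of Rps20 1421935_at (0.72 ± 0.52) and Rps10 1438723_a_at (-0.71 ± 0.29). Rpl19 (0.44 ± 0.14; limma adjusted p = 0.0615), a large subunit protein, passed without the dim arrays (0.59, limma adjusted p = 0.0227). The 25-week values of 8 of 90 probe sets did not overlap those of controls, against 16.2% of all tested.

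**Figure D3:**
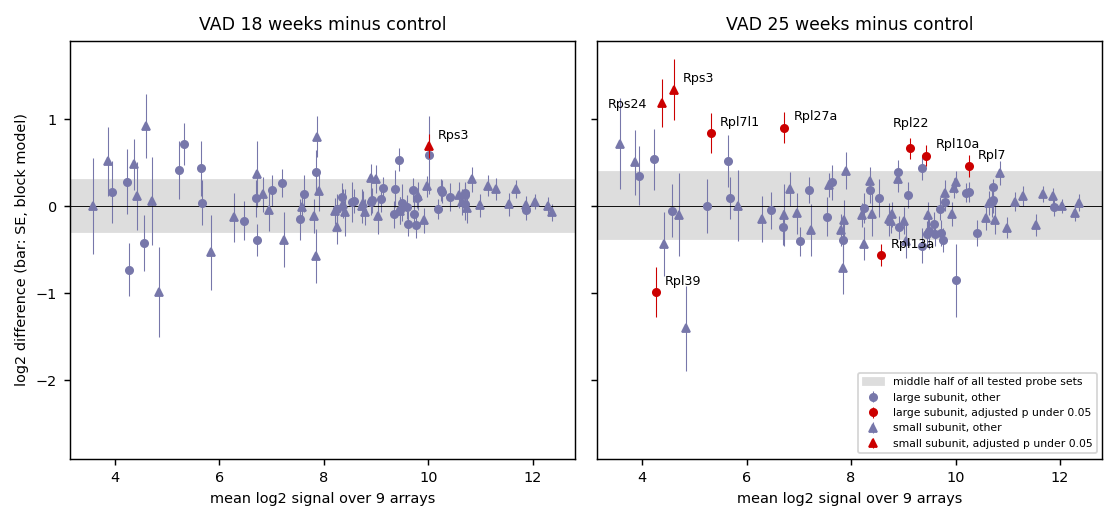
Log2 difference from control (vertical axis, bars are SE of the block model) against mean log2 signal over the 9 arrays for each kept ribosomal protein probe set, at 18 weeks (left) and 25 weeks (right), with the grey band covering the interquartile range of all tested probe sets. Named red points passed, and 79 of 90 probe sets at 18 weeks and 75 of 90 at 25 weeks lay within 0.5 of 0.

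The comparison of 18 weeks of deficiency with control asks the same of the shorter time, and it uses the same control arrays. Only Rps3 1435151_a_at passed, higher at 18 weeks, and 0 ribosomal protein probe sets were lower. That 1 of 90 (1.11%) is read against 1.47% of all tested probe sets, 1.33% higher and 0.133% lower. The median difference was 0.05, with an interquartile range from -0.05 to 0.19, and 79 of 90 lay within 0.5 of 0, against 73.5% of all. With the model of group alone the median was 0.28 and 0 probe sets were called, while 1958 of all tested probe sets had an unadjusted p under 0.05. Without the dim arrays 2 were called, Rps3 1435151_a_at and Rpl10a, beside a background of 3.98%. The 18-week values of 23 of 90 did not overlap those of controls, against 19.4% of all tested.

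Rps3 1435151_a_at read 9.53, 9.68 and 10.13 in controls, 10.07, 10.29 and 10.29 at 18 weeks, and 9.70, 9.74 and 10.73 at 25 weeks. The dim arrays were the highest of their groups, and the dim control array overlapped the 18-week range. The block model placed the 18-week difference at 0.69 ± 0.14 (SE, n = 3 per group; limma adjusted p = 0.0359). It was 0.44 without the block (limma adjusted p = 0.756) and 0.60 without the dim arrays (limma adjusted p = 0.0201). The call was lost in 7 of 9 fits that left out 1 array, namely those without any single one of control replicates 1 and 2, the 18-week arrays, and VAD 25-week replicates 1 and 2 (adjusted p from 0.0502 to 0.14).

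By representative probe set, the next smallest p-values at 18 weeks belonged to Rpl10a and Rpl39, described above, Rpl27a and Rps19. Rps19, the gene most often mutated in Diamond-Blackfan anaemia, read 7.86, 7.36 and 8.03 in controls, 7.94, 8.61 and 8.25 at 18 weeks, and 7.13, 7.22 and 8.44 at 25 weeks. Its 18-week difference of 0.80 ± 0.24 (SE, n = 3 per group; limma adjusted p = 0.124) and its 25-week difference of -0.16 ± 0.22 did not pass. Rpl27a, called at 25 weeks, was at -0.39 ± 0.18 at 18 weeks (limma adjusted p = 0.315), with all 3 arrays below all controls.

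Between 25 and 18 weeks of deficiency, a comparison of the time on the diet, 0 of 90 ribosomal protein probe sets passed, and 0% of all tested probe sets did. At an unadjusted p under 0.05 there were 15 of 90, and 3119 of all tested, and the smallest limma adjusted p among ribosomal proteins was 0.134. That was Rpl27a at 1.29 ± 0.18, with the values of both groups given above and no overlap between them. The groups did not overlap for 12 of 90 ribosomal protein probe sets, against 17.1% of all tested. Rps19 was at -0.95 (limma adjusted p = 0.18), Rpl13a 1417608_a_at at -0.62 (0.161), Rpl19 at 0.53 (0.214) and Rpl37, a zinc-binding protein of the large subunit, at -0.59 (0.241). Without both dim arrays 4 passed, where the background was 1.63%, and 4 passed also without the control one alone (1.42%) or the 25-week one alone (1.44%). Without both, these were Rpl27a, which was higher at 25 weeks (limma adjusted p = 0.0176), and Rpl13a 1455001_x_at (0.0249), Rpl41 1422623_x_at (0.0249) and Rps19 (0.0354), which were lower.

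The paralogue pairs were examined because a second copy can differ in its expression from the first. Rpl39l read 11.88, 11.68 and 12.32 in controls, 11.63, 11.64 and 11.93 at 18 weeks, and 11.80, 11.74 and 12.30 at 25 weeks, with its highest values on the dim arrays. Its differences were -0.05 ± 0.11 and -0.01 ± 0.11 at 18 and 25 weeks (SE, n = 3 per group), beside -0.73 and -0.99 for Rpl39. The difference between the paralogues was not tested. Of the 3 Rpl22 probe sets 1 was higher at 25 weeks, whereas Rpl22l1 was at -0.32 ± 0.13 (limma adjusted p = 0.137). It read 9.62, 9.74 and 10.22 in controls, 9.28, 9.34 and 9.71 at 18 weeks, and 9.34, 9.24 and 10.05 at 25 weeks, with overlap in both comparisons.

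The other pairs gave 0 calls beyond those of Rpl7 and Rpl7l1. Rps27l, a p53 target, was at 0.24, 0.41 and 0.29 for its 3 probe sets at 25 weeks, and 1450925_a_at passed without the dim arrays (0.71, limma adjusted p = 0.0453). Rps27 1460699_at spread from 3.91 to 5.47 among controls and from 3.75 to 5.59 at 18 weeks, so its differences of 0.06 ± 0.51 and -0.10 ± 0.48 carry little precision. The X-linked Rps4x was at -0.53 ± 0.43 and 0.01 ± 0.41, and its autosomal copy Rps4l at -0.07 ± 0.27 and -0.09 ± 0.25. Rps4l read 9.23, 9.10 and 6.30 in controls and 8.53, 8.76 and 7.08 at 25 weeks, where the dim arrays were the lowest of each group. Rpl3l, the striated muscle form of Rpl3, was below the filter. Of the stalk proteins, which recruit elongation factors, Rplp0 was at 0.10 ± 0.16 and -0.31 ± 0.15, and Rplp2 at -0.01 ± 0.14 and -0.21 ± 0.13, at 18 and 25 weeks, and neither passed.

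**Figure D4:**
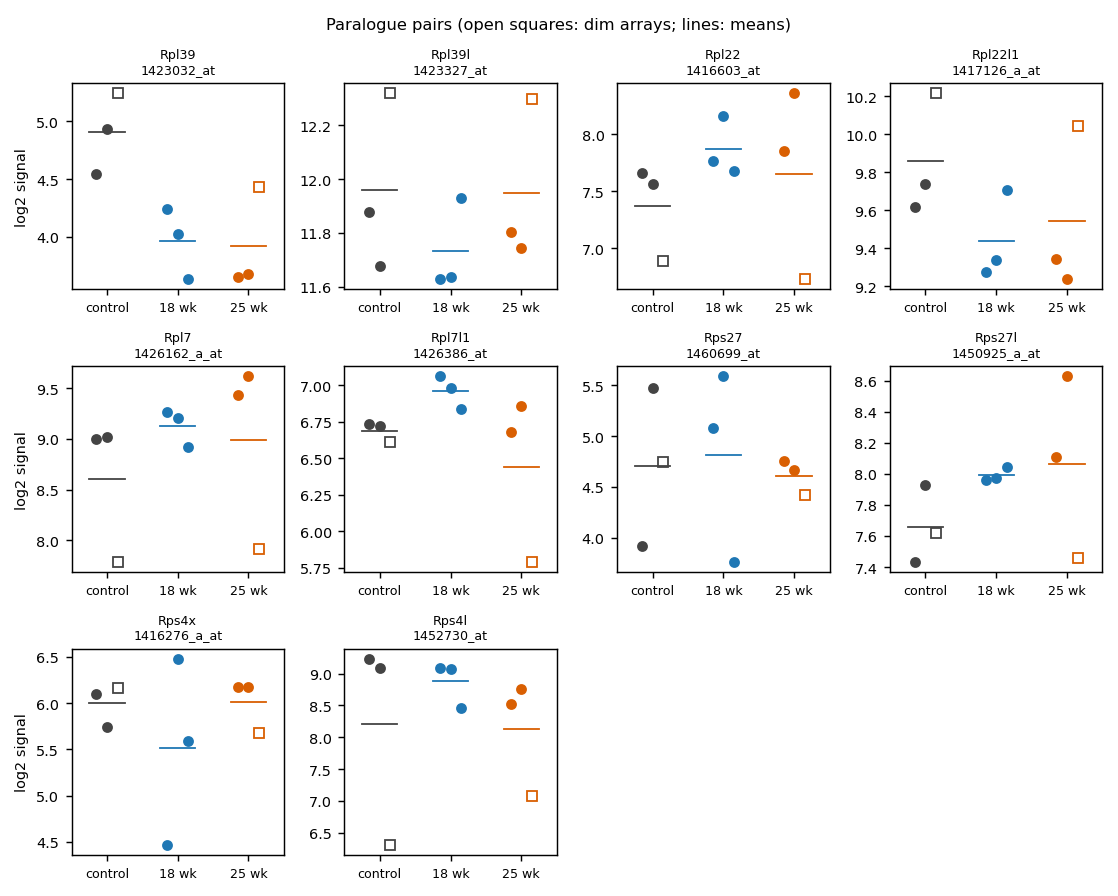
Log2 signal (vertical axes, each with its own range) of 5 pairs of ribosomal protein paralogues by array and group, with lines at group means and open squares for the dim arrays. Rpl39 lay lower on all VAD arrays than on the controls, while Rpl39l had 11.63 to 12.32 on all 9 arrays with overlap between groups.

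Probe sets of a gene did not always move alike. Of the 44 kept genes, 20 had several kept probe sets, and 0 of these genes had calls in opposite directions. The 4 probe sets of Rpl41, which encodes a very short peptide, ranged from -0.85 to 0.09 at 25 weeks, and the 4 of Rpl13a from -0.56 to 0.21. By contrast the 3 of Rps28 lay between 0.05 and 0.14, the 3 of Rpl27 between 0.10 and 0.18, and the 5 of Rpl35 between -0.32 and 0.05. Of the 90 kept probe sets, 69 carry a suffix (_x_at, _s_at or _a_at) that marks probes shared by several transcripts. For _a_at these can be transcripts of 1 gene. Ribosomal protein genes have many near-identical processed copies, and whether the signal of a probe set came from 1 locus was not tested. Of the 21 without such a suffix 5 (23.8%) were called at 25 weeks, 4 higher and 1 lower. Of the 69 with one 4 (5.80%) were called, 3 higher and 1 lower, beside 14.9% of all tested probe sets. The 21 had larger errors than the 69, with a median SE of 0.278 against 0.148.

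Genes that build, use or regulate ribosomes were counted in the same fits. Over all tested probe sets these fits called 1.47% at 18 weeks and 14.9% at 25 weeks. Fau, which encodes the small subunit protein S30 as a fusion, fell by 0.65 on the log2 scale at 25 weeks (SE 0.18; limma adjusted p = 0.0329), and Rpsa did not pass (0.57). Of 8 elongation factor genes 1 fell at 25 weeks, Eef2, which drives translocation (-0.46 ± 0.10; limma adjusted p = 0.0141), and the abundant Eef1a1 was at 0.08 ± 0.08. Of 15 other mRNAs with a pyrimidine tract, which include Eef2, 2 fell at 25 weeks, the other being Naca (-0.58 ± 0.15), a chaperone of nascent chains. On the deposited scale Fau (0.27), Eef2 (0.38) and Naca (0.40) lay above control. At 18 weeks 0 members of these lists passed.

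Ribosome assembly genes moved in both directions. Their counts are read against 1.47% of all tested probe sets called at 18 weeks and 14.9% at 25 weeks. Of 16 genes of RNA polymerase I, 1 rose at 18 weeks, and 3 rose and 1 fell at 25 weeks. Taf1d, part of the factor that places the polymerase on ribosomal DNA, rose by 1.12 ± 0.24 and 1.51 ± 0.23 (SE, n = 3 per group), and Polr1d, shared with RNA polymerase III, fell by 0.60 at 25 weeks. Of 10 small nucleolar ribonucleoprotein genes, 1 rose at 18 weeks, Gar1 (0.90 ± 0.19), and Gar1 (0.92 ± 0.18) and Naf1 (0.79 ± 0.18) rose and Nolc1 (-0.79 ± 0.19) fell at 25 weeks. Of 37 small subunit assembly genes, 1 rose at 18 weeks, the late factor Tsr1 (0.89 ± 0.18), and 5 rose and 2 fell at 25 weeks, with Tsr1 at 1.31 ± 0.17, Utp20 at 0.75 ± 0.17 and Riok2 at 0.91 ± 0.23. Of 38 large subunit assembly genes, 1 rose at 18 weeks, Rrs1 (1.34 ± 0.21), and 2 rose and 2 fell at 25 weeks, with Rrs1 at 1.45 ± 0.20, Gnl2 at 0.82 ± 0.17 and Rrp1 at -0.59 ± 0.14. On the deposited scale Polr1d (0.39), Nolc1 (0.23) and Rrp1 (0.27) lay above control. The medians of these 4 lists at 25 weeks ran from -0.04 to 0.22.

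A list of regulators of ribosomal protein translation and related genes, such as Larp7, was mixed at 25 weeks. Of 14 measured, 3 were higher and 3 lower, beside 14.9% of all tested probe sets called, and 0 were called at 18 weeks. Larp4b (0.69 ± 0.12; limma adjusted p = 0.00506), Larp4 (0.58 ± 0.15) and Larp1 (0.40 ± 0.11), of the La-related family, were higher. Tsc2, an inhibitor of mTOR signalling (-0.78 ± 0.21), Eif4ebp1, a repressor of cap-dependent translation (-0.87 ± 0.25), and Larp7 (-0.33 ± 0.10) were lower. Without the dim arrays Larp4, Larp1 and Larp7 did not pass (limma adjusted p = 0.0581, 0.144 and 0.0888). On the deposited scale Tsc2 (0.22), Eif4ebp1 (0.08) and Larp7 (0.51) lay above control. Of 3 measured S6 kinase genes 0 passed at either time. Between 25 and 18 weeks 0 members of any of these lists passed.

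The scaling moved the median of the ribosomal proteins and that of all tested probe sets, in places in opposite directions. At 25 weeks the members' median ran from -0.09 to 0.06 across the scalings other than the deposited one, and the median of all from -0.01 to 0.10, while on the deposited scale they were 0.89 and 0.93. At 18 weeks, where they were 0.05 and -0.01 after quantile normalization, they went apart on the deposited scale (0.02 for members and 0.12 for all) and with a common trimmed mean (-0.01 and 0.10). Median centring gave -0.15 and -0.05, and centring at the brightest 5% gave 0.13 and 0.23.

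**Figure D5:**
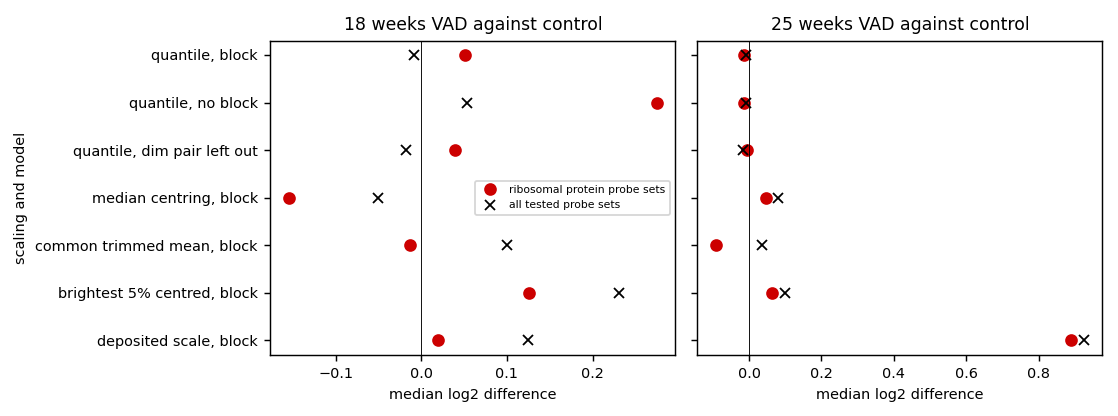
Median log2 difference from control (horizontal axes, with different ranges) of the kept ribosomal protein probe sets (red points) and of all tested probe sets (crosses) at 18 weeks (left) and 25 weeks (right), under 7 combinations of scaling and model. At 25 weeks both medians lay near 0 except on the deposited scale, where they were 0.89 and 0.93.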

How the data were processed

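Affymetrix mouse arrays measured RNA of 9 samples, 3 per group. Each deposited value is a probe set's MAS5 intensity, linear in scale, per the submitters' processing notes. The MAS5 version and its scaling target are not stated there, and arrays differ in level. The pseudocount in log2(signal + 3.26) is the 25th percentile of all signals and understates changes of faint probe sets. Quantile normalization followed. After removal of 64 control probe sets, those under the 40th percentile of mean signal were filtered out. By platform annotation, 34945 probe sets had 1 symbol, 932 had several and 9160 none; chromosomes and start windows came from RefSeq tables of GRCm38.p6.

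The fit used limma 3.58.1 (R 4.3.3) with a variance trend over all 9 arrays, with terms for group and for arrays whose trimmed mean (2% off each end) was under 0.5 of the median, which left 5 residual degrees of freedom, and it was checked on simulated data. Earlier work on these data adopted this block after group alone called nothing, and the members, gene lists and tests were likewise chosen with earlier results of these data known. For naming, a gene's brightest kept probe set stood for it, with _x_at and _s_at ones taken last, so faint probe sets stood for Rps24, Rps20 and Rpl41. The rule named, per comparison, the 6 highest and 6 lowest called genes without overlap or, with fewer than 5 of these, those with the smallest p up to 5, along with fixed paralogues, stalk proteins and up to 3 genes per list. Other called probe sets, and other examples, were chosen after their values were seen. Alternatives changed the scaling, pseudocount, filter, variance model, block and arrays included. The number of arrays limits the precision.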

Additional observations from a re-analysis of the deposited data

Results flagged for a closer look

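For 3 probe sets every array at 18 weeks lay on one side of the control mean and every array at 25 weeks on the other. That mean includes the dim control array. Without the dim arrays the 18-week values overlapped those of controls for Rpl13a 1455001_x_at and Rpl41 1422623_x_at, with differences of 0.19 and 0.01. Those of Rpl27a 1437729_at did not overlap (-0.33). The plain group means, dim arrays included, differed between 25 and 18 weeks by 1.86 on the log2 scale for Rpl27a 1437729_at, by -1.23 for Rpl13a 1455001_x_at and by -0.75 for Rpl41 1422623_x_at. The test of 25 against 18 weeks with the block for the dim arrays did not pass for any of them (limma adjusted p = 0.134, 0.255 and 0.275), and without the dim arrays it passed for all 3 (limma adjusted p = 0.0176, 0.0249 and 0.0249). They were singled out by their values.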

How the results depend on the processing

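At 18 weeks the count of 1 called ribosomal protein probe set became 0 without the block for the dim arrays (0% of all called). It was 0 on the deposited scale (0.496% of all), with median centring (1.73%) and with no variance trend (0%). With replicate numbers added as a block (0.0703% of all) and without suffixed probe sets it was also 0. The count became 2 without the dim arrays (3.98% of all) or with a block of 3 array sets (3.57%), and 3 with array weights (4.02%). Centring at the brightest 5% gave 5, where 5.51% of all tested probe sets were called. The 18-week median of 0.05 became 0.28 without the block and -0.15 with median centring. At 25 weeks the count of 9 became 0 without the block and 14 without the dim arrays (15.6% of members, 15.7% of all). It became 41 on the deposited scale (45.6% and 39.1%), 21 with array weights (23.3% and 24.4%) and 5 without suffixed probe sets (23.8% and 14.9%). The median of -0.01 became 0.89 on the deposited scale. Between 25 and 18 weeks the count of 0 became 4 (4.44% of members) without the dim arrays, beside 1.63% of all. It became 7 (7.78%) on the deposited scale and 9 (10%) with array weights, beside 6.68% and 5.74% of all. The median of -0.03 became -0.22 without the block, 0.88 on the deposited scale and 0.21 with median centring. Leaving out 1 array gave counts from 0 to 2 at 18 weeks. The 2 came without either dim array (3.86% and 3.63% of all called), and every other count was 0 (0.137% to 0.696% of all). Counts ran from 3 to 15 at 25 weeks (6.61% to 15.5% of all). Between 25 and 18 weeks they ran from 0 to 4, where the 4 came without either dim array (1.42% and 1.44% of all). Rpl13a 1417608_a_at at 25 weeks reversed to 0.41 on the deposited scale. The cause of these moves was not tested.

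Arrays with the same replicate number deviated from their group means together for control and VAD 25 weeks (r from 0.52 to 0.69). They did not for the 18-week arrays (r up to 0.08), so the numbers were not taken as pairs. Replicate 3 is the dim array of both control and VAD 25 weeks, and it shifts the mean of its group for every replicate. A pairing by number and the dim arrays therefore cannot be told apart in these r values. With the replicate block 0, 7 and 0 ribosomal protein probe sets were called at 18 weeks, at 25 weeks and between them. The shares of all tested probe sets called were 0.0703%, 9.62% and 0%. Among single named probe sets, 351 of their values under the alternatives kept direction and side of the threshold, 76 lost the call, 27 gained it, 3 changed sign without a call and 1 reversed. Faint probe sets, such as those of Rpl39, Rps24 and Rps27, carry larger errors than bright ones.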
